A study of Mus musculus with 35 samples.

Results

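The genes described here encode enzymes that make serine, carry 1-carbon units on folate and make asparagine, proline and alanine: Phgdh, Psat1, Psph, Shmt1, Shmt2, Mthfd2, Asns, Aldh18a1, Pycr1 and Gpt2. Every array probe set whose annotation names exactly 1 gene was taken when that gene was on this list. This gave 28 probe sets for 9 of the 10 genes, out of 34958 probe sets for 18194 genes on the whole array. No probe set was paired with Pycr1, so it was not analysed here. The filter on dim and flat probe sets described below kept 27 of the 28, and Shmt1 probe set 1422198_a_at was the one it removed.

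Gene expression had been measured in motoneurons cut by laser from the lumbar spinal cord, with 300 cells and 1 array per mouse. SOD1 mice were B6.Cg-Tg(SOD1-G93A)1Gur/J females, hemizygous for a high-copy transgene of mutant human SOD1, and WT mice were labelled C57BL/6J and described in the methods as wild type littermates. The groups were untreated SOD1 mice of 11 weeks (n = 8) with WT mice of 11 weeks (n = 6), and, at 15 weeks, SOD1 mice given G-CSF (granulocyte colony-stimulating factor, as filgrastim) from week 11 on (n = 7), SOD1 mice given its vehicle over the same time (n = 7) and WT mice (n = 7). Both agents came from a minipump under the skin, and the WT mice of both ages are given as untreated. In SOD1 mice age therefore goes with the pump. At week 15 the SOD1 genotype goes with it too, so genotype and pump cannot be told apart there. At 11 weeks SOD1 mice of this line show no motor symptoms, and at 15 weeks they are early symptomatic.

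Serine is built from a glycolysis intermediate in 3 steps: Phgdh oxidises 3-phosphoglycerate, Psat1 adds the amino group and Psph removes the phosphate. Shmt2 in mitochondria and Shmt1 in the cytosol split serine to glycine and pass its side carbon to folate, and Mthfd2 oxidises that unit in mitochondria. In nervous tissue, serine synthesis and Phgdh in particular are best known from astrocytes, and neurons are held to depend on serine that astrocytes supply. Most of these genes are also textbook targets of Atf4, a transcription factor made in cells that are short of amino acids or hold unfolded protein.

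Atf4 is known to bind, with a C/EBP partner, to elements whose core reads TGATGNAA, so these letters were searched on both strands of the 300 bases around each start site (250 before it and 50 after it; RefSeq, GRCm38.p6). They occur in 1304 of 32851 promoter windows of mouse genes, or 3.97%. Among the members they occur in the windows of Asns and Pycr1, once each, and in none of the windows of the other 8 genes, which says only that these letters are not in those 300 bases. The windows of the 3 genes that were called higher in SOD1 mice at both ages, and that of Asns with its match in capitals, are shown for reading beside the values below. Each is written from 5′ to 3′ along the gene, and all lie on the minus strand. Psat1 has a further annotated start, whose window also holds no match.
Phgdh (chr3:98339920-98340219, minus strand): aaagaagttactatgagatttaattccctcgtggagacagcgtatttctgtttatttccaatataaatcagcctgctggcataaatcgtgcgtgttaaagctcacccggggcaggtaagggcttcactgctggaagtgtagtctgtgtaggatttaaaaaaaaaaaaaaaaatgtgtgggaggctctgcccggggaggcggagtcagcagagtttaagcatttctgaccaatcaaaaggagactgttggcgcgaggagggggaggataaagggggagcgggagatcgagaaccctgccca
Psat1 (chr19:15925010-15925309, minus strand): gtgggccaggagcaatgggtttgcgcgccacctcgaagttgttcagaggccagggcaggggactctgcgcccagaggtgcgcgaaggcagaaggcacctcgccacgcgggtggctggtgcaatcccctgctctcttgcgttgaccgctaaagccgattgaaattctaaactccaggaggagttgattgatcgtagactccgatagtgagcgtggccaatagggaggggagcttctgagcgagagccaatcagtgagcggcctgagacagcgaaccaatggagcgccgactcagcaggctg
Shmt2 (chr10:127522395-127522694, minus strand): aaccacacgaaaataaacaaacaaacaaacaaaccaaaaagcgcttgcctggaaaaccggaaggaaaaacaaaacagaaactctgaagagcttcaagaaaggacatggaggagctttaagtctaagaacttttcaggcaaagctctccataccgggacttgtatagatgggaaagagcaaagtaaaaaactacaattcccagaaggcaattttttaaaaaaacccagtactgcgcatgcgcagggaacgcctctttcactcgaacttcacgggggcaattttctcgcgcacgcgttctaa
Asns (chr6:7693160-7693459, minus strand): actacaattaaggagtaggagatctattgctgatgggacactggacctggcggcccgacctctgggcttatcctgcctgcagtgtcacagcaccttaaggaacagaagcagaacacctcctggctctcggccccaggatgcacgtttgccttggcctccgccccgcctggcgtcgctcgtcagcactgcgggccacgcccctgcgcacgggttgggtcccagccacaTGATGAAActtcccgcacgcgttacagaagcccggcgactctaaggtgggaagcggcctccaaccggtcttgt
The match in Asns starts 23 bases before the start site, at position -23, and reads TGATGAAA. That of Pycr1 reads TGATGCAA and starts at position -103.

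Values below are log2 intensities, so a difference of 1.00 is a 2-fold change. The array medians lay between 3.19 and 3.47. GCRMA, the authors' normalization, compresses the readings of dim probe sets near and under that level, so a fold change against a dim group is hard to size. Probe sets whose names end in _x_at or _s_at hold probes that can also match other sequences, and this includes most of those discussed for Phgdh, Psat1 and Shmt2. A probe set was called changed where a limma fit over the 5 groups gave an unadjusted p under 0.05, a change of 1.5-fold or more and an adjusted p under 0.1 (Benjamini-Hochberg over all 31352 filtered probe sets). In such dissected samples, fewer cells of a type and less RNA per cell cannot be told apart.

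Some facts of the arrays touch every comparison. The mean of 8 general neuron markers lay between 9.46 and 11.12 on all arrays, and that of 8 motoneuron markers between 5.45 and 6.70, although Chat, the acetylcholine-synthesising enzyme that defines these cells, read only 2.49 to 5.00. All 12 astrocyte markers read above the 20th centile of the arrays in every group, a level under the array medians that does not by itself show presence. Aldoc and S100b, among the brightest, read at least 10.52 and 9.80 on every array. Sox9 and Aldh1l1, among the dimmest, had group means of 3.36 to 3.68 and 3.16 to 4.08, near the array medians. The paper reports glial markers as very low or undetected and calls contamination minimal, but allows for some astrocyte RNA. Which cells gave these signals was not tested. Measured by the first 3 principal components, 3 arrays stood apart from their own groups: WT mouse 6 (week 11) and, among the vehicle-treated, mice 3 and 5. The 5′ control probe set for 18S ribosomal RNA averaged 10.20 ± 0.83 in the SOD1 and 9.26 ± 0.67 in the WT group at week 11, and 11.12 ± 0.36 in G-CSF-treated, 10.98 ± 0.87 in vehicle-treated and 11.49 ± 0.34 in WT mice of week 15 (SD). Sod1 had been chosen to check the genotype labels, but 0 of its 3 tested probe sets were called between SOD1 and WT mice at either age. Their median differences were -0.71 at week 11 and -0.01 with vehicle at week 15. Whether they read the human transgene was not tested, so they could not check the labels.

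The first question was which of these genes differ in SOD1 motoneurons before motor symptoms. At week 11, 11 of the 27 tested probe sets were called higher in SOD1 than in WT mice, from 7 of the 9 genes (Phgdh, Psat1, Psph, Shmt2, Mthfd2, Asns and Aldh18a1), and 0 were called lower. Over all probe sets, 1.13% were called higher and 0.188% lower. The members' median difference was 0.61, against -0.01 over all tested probe sets, and 24 of the 27 lay above 0. In 7 of the 27 every SOD1 mouse lay above every WT mouse, which held for 0.456% of all probe sets. Shmt1 and Gpt2 had no called probe set. The 18S reading given above moved with genotype at this age. With it as a covariate 4 member probe sets were called (both large Phgdh differences at 3.16 and 3.19, Psat1 1454607_s_at at 0.95 and Aldh18a1 1415836_at at 1.33). Its part in the result was not tested further.

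Phgdh, the first and committing enzyme of serine synthesis, showed the largest differences. On probe set 1437621_x_at, SOD1 mice of week 11 ranged from 6.97 through a median of 7.63 to 8.57, and WT mice from 3.47 through 4.87 to 5.34. The groups did not overlap, with more than a full log2 unit between the lowest SOD1 and the highest WT mouse. The difference was 3.05 ± 0.40 (SE), or 8.26-fold, with an adjusted p of 6.08e-05 in limma. Probe set 1454714_x_at gave 6.88, 7.56 and 8.73 in SOD1 mice against 3.11, 4.83 and 5.18 in WT mice (lowest, median, highest), again without overlap. Its difference was 3.12 ± 0.44 (adjusted p = 0.000126, limma). The other Phgdh probe sets differed far less, by 0.54 ± 0.22 for 1456584_x_at and by 0.54 ± 0.15 for 1426658_x_at, and neither was called. The probe sets of this gene therefore did not read the same size of change, although all 4 lay above 0.

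**Figure D1:**
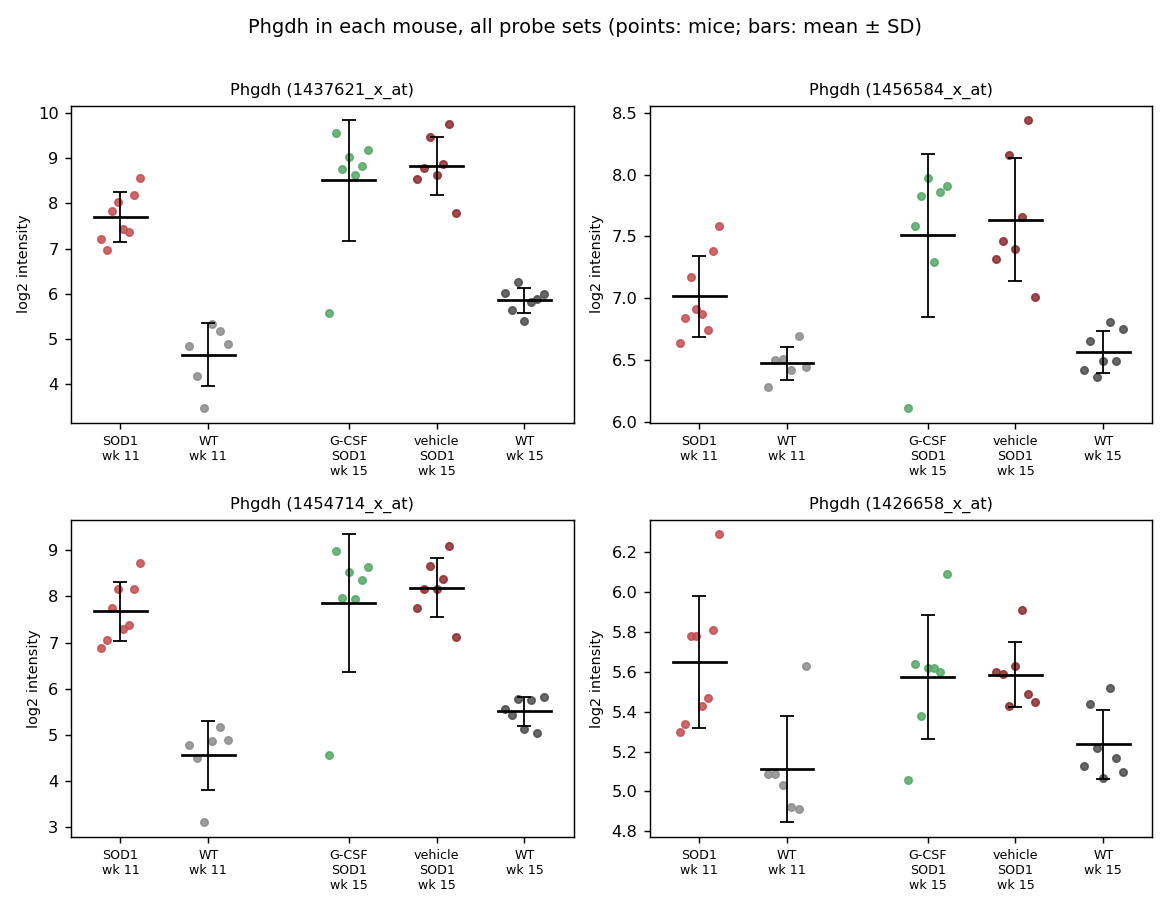
Log2 intensity (vertical axis) of the 4 Phgdh probe sets in each of the 35 mice, by group (horizontal axis: SOD1 and WT of week 11, then G-CSF-treated SOD1, vehicle-treated SOD1 and WT of week 15); points are mice, bars the mean ± SD. On 1437621_x_at the SOD1 mice of week 11 start at 6.97 and the WT mice end at 5.34, and 1 G-CSF-treated mouse at 5.57 lies with the WT mice of week 15.

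Psat1, the aminotransferase of the next step, was called higher on both of its probe sets. On 1454607_s_at, SOD1 mice read 9.54, 9.95 and 10.16 against 9.03 as the median of WT mice, which ran from 8.28 to 9.53. The lowest SOD1 mouse was just above the highest WT mouse, and the difference was 0.92 ± 0.19 (adjusted p = 0.0148, limma). On 1451064_a_at, SOD1 mice read 7.84, 8.78 and 9.04, and WT mice 3.42, 7.30 and 7.66. The lowest WT value belonged to WT mouse 6, one of the arrays that stood apart, while the other WT mice lay between 7.21 and 7.66. The difference of 1.90 ± 0.45 (adjusted p = 0.0377, limma) stood at 1.24 without that mouse and was still called.

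Psph, the phosphatase that completes the pathway, read 7.11, 7.75 and 8.21 in SOD1 mice against 6.07, 6.48 and 7.98 in WT mice. The overlap came from WT mouse 6 at 7.98, since the other WT mice read at most 6.81, below every SOD1 mouse. The difference was 1.08 ± 0.27 (adjusted p = 0.0537, limma). When each of the 35 mice was left out in turn, the call was kept 29 times, with differences from 0.97 to 1.35. It was lost without SOD1 mouse 3 or 8 or WT mouse 1, 2, 3 or 5 of week 11.

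Among the folate enzymes, the mitochondrial Shmt2 and Mthfd2 were called higher and the cytosolic Shmt1 was not called. Shmt2 probe set 1455084_x_at read 6.28, 7.03 and 7.43 in SOD1 mice against 4.55, 5.86 and 6.05 in WT mice, without overlap, and differed by 1.37 ± 0.28 (adjusted p = 0.0138, limma). The other 3 Shmt2 probe sets differed by 0.33 to 0.46 and were not called. They read at most 5.01 on any array, and whether their dimness bears on the smaller differences was not tested. Mthfd2 probe set 1419254_at read 5.26, 6.70 and 7.18 in SOD1 mice against 4.20, 4.65 and 5.46 in WT mice, and 7 of 8 SOD1 mice lay above all WT mice. It differed by 1.68 ± 0.40 (adjusted p = 0.0415, limma). On the other Mthfd2 probe set, 1419253_at, all 8 SOD1 mice lay above the WT mice, but the smaller difference of 0.61 ± 0.18 just missed the threshold (adjusted p = 0.102, limma). Shmt1 probe set 1425177_at read 4.62, 4.81 and 5.25 in SOD1 mice against 4.81, 5.27 and 6.31 in WT mice, a difference of -0.56 ± 0.24 that was not called.

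Asns, which makes asparagine from aspartate with glutamine as the nitrogen donor, was called on 1 of 2 probe sets. On 1451095_at, SOD1 mice read 9.71, 10.49 and 10.79 against 9.24, 9.86 and 10.18 in WT mice. All SOD1 mice but mouse 1 lay above every WT mouse, and the difference was 0.66 ± 0.19 (adjusted p = 0.0872, limma). The call was kept in 24 of 35 fits with 1 mouse left out, with differences from 0.56 to 0.77. It was lost without SOD1 mouse 2, 3, 4, 5, 7 or 8, WT mouse 2, 3, 5 or 6 of week 11, or WT mouse 6 of week 15. Probe set 1433966_x_at differed by 0.29 ± 0.16 and was not called.

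Aldh18a1 makes the precursor from which proline and ornithine are formed, and 3 of its 5 probe sets were called. Probe set 1415836_at read 3.57, 4.37 and 5.32 in SOD1 mice of week 11 against 2.72, 2.92 and 3.54 in WT mice. The groups did not overlap, and the difference of 1.49 ± 0.22 (adjusted p = 0.000214, limma) was kept in all 35 fits with a mouse left out, but most WT values lay below the array medians. Probe set 1437325_x_at differed by 0.95 ± 0.24 (adjusted p = 0.0537, limma) and was called in 30 of 35 such fits, with differences from 0.84 to 1.06. That call was lost without SOD1 mouse 4 or 5 or WT mouse 1, 2 or 5. Probe set 1437333_x_at differed by 0.75 ± 0.21 (adjusted p = 0.0908, limma), from 0.60 to 0.85 with a mouse left out. It was called in 20 of 35 fits and lost without SOD1 mouse 1, 2, 3, 4, 5, 7 or 8, WT mouse 1, 2, 3 or 5 of week 11 or WT mouse 3, 4, 5 or 6 of week 15. The remaining probe sets differed by 0.61 and 0.43. Gpt2, the mitochondrial alanine aminotransferase, was not called on any of its 4 probe sets, with differences from -0.25 to 1.08.

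**Figure D2:**
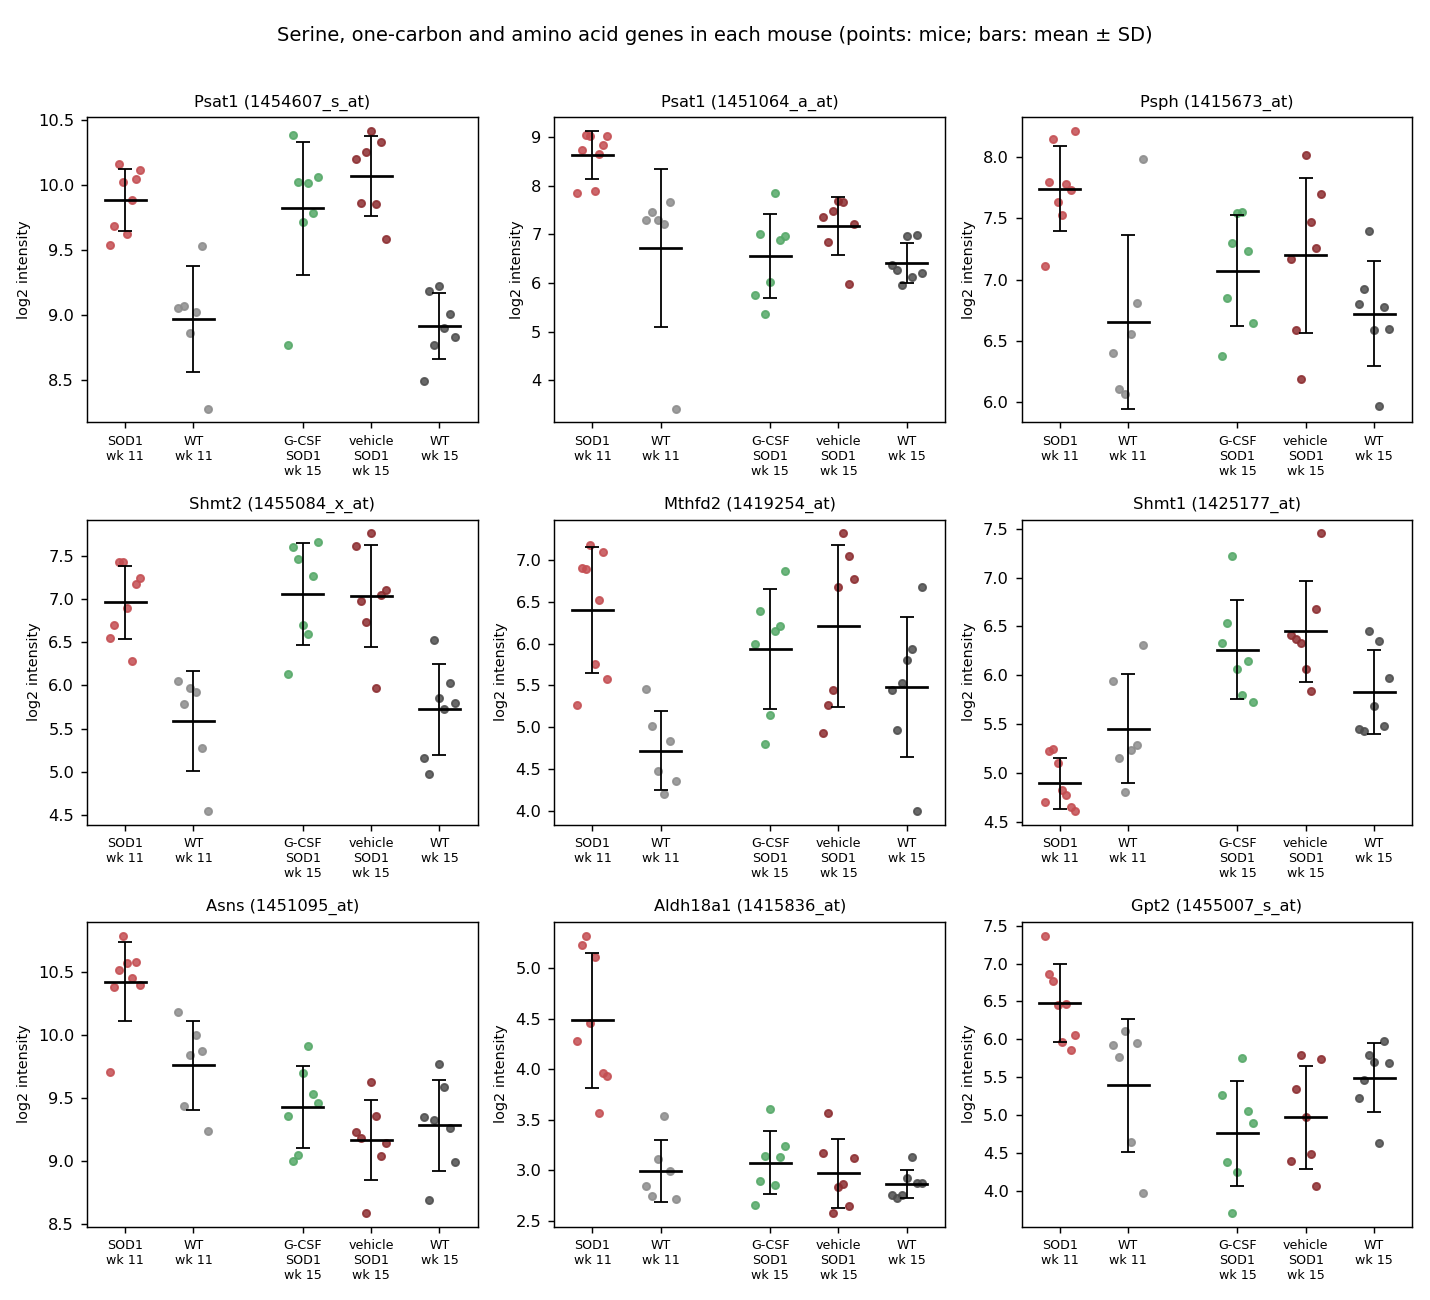
Log2 intensity (vertical axis) of 9 probe sets of Psat1, Psph, Shmt2, Mthfd2, Shmt1, Asns, Aldh18a1 and Gpt2 in each mouse, by group (horizontal axis); points are mice, bars the mean ± SD. Psat1 1454607_s_at and Shmt2 1455084_x_at are high in all 3 SOD1 groups, while Aldh18a1 1415836_at is high in SOD1 mice of week 11 (3.57 to 5.32) and at most 3.61 in every other group.

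The second question was what remains at 15 weeks, when SOD1 mice are symptomatic. In vehicle-treated SOD1 mice, 5 of the 27 probe sets were called higher than in WT mice, from Phgdh (3 probe sets), Psat1 and Shmt2, and 0 were called lower. Over all probe sets, 1.72% were called higher and 4.2% lower at this age. The members' median difference was 0.35, against 0.02 over all, and 22 lay above 0. In 4 probe sets (3 of Phgdh and 1 of Psat1) the groups did not overlap, which held for 0.612% of all probe sets.

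Phgdh 1437621_x_at read 7.79, 8.78 and 9.76 in vehicle-treated SOD1 mice against 5.41, 5.88 and 6.27 in WT mice, and differed by 2.97 ± 0.40 (adjusted p = 5.25e-05, limma). On 1454714_x_at the values were 7.12, 8.16 and 9.09 against 5.05, 5.57 and 5.83, a difference of 2.68 ± 0.44 (adjusted p = 0.000687, limma). Both groups were again fully apart. Probe set 1456584_x_at, not called at week 11, differed by 1.07 ± 0.22 (adjusted p = 0.00484, limma). Psat1 1454607_s_at read 9.58, 10.20 and 10.41 against 8.49, 8.90 and 9.22, and differed by 1.15 ± 0.19 (adjusted p = 0.00069, limma). Shmt2 1455084_x_at read 5.97, 7.05 and 7.76 against 4.97, 5.80 and 6.53, with 6 of 7 vehicle-treated mice above every WT mouse, and differed by 1.31 ± 0.28 (adjusted p = 0.00741, limma). All 5 calls were kept in each of the 35 fits with 1 mouse left out.

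The other genes were not called at this age. Psph differed by 0.47 ± 0.27, Mthfd2 1419254_at by 0.73 ± 0.40 and Psat1 1451064_a_at by 0.76 ± 0.44, all with intervals that reach from just below 0 to more than 1.00. Aldh18a1 1415836_at read 2.58, 2.86 and 3.57 in vehicle-treated mice against 2.73, 2.87 and 3.13 in WT mice, a difference of 0.10 with a 95% interval from -0.34 to 0.55. The other Aldh18a1 probe sets differed by 0.32 to 0.47. Asns 1451095_at differed by -0.11 (interval -0.49 to 0.26) and the other Asns probe set by 0.44 (0.11 to 0.77), so the 2 Asns probe sets lay on opposite sides of 0. No Gpt2 probe set lay above 0.

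**Figure D3:**
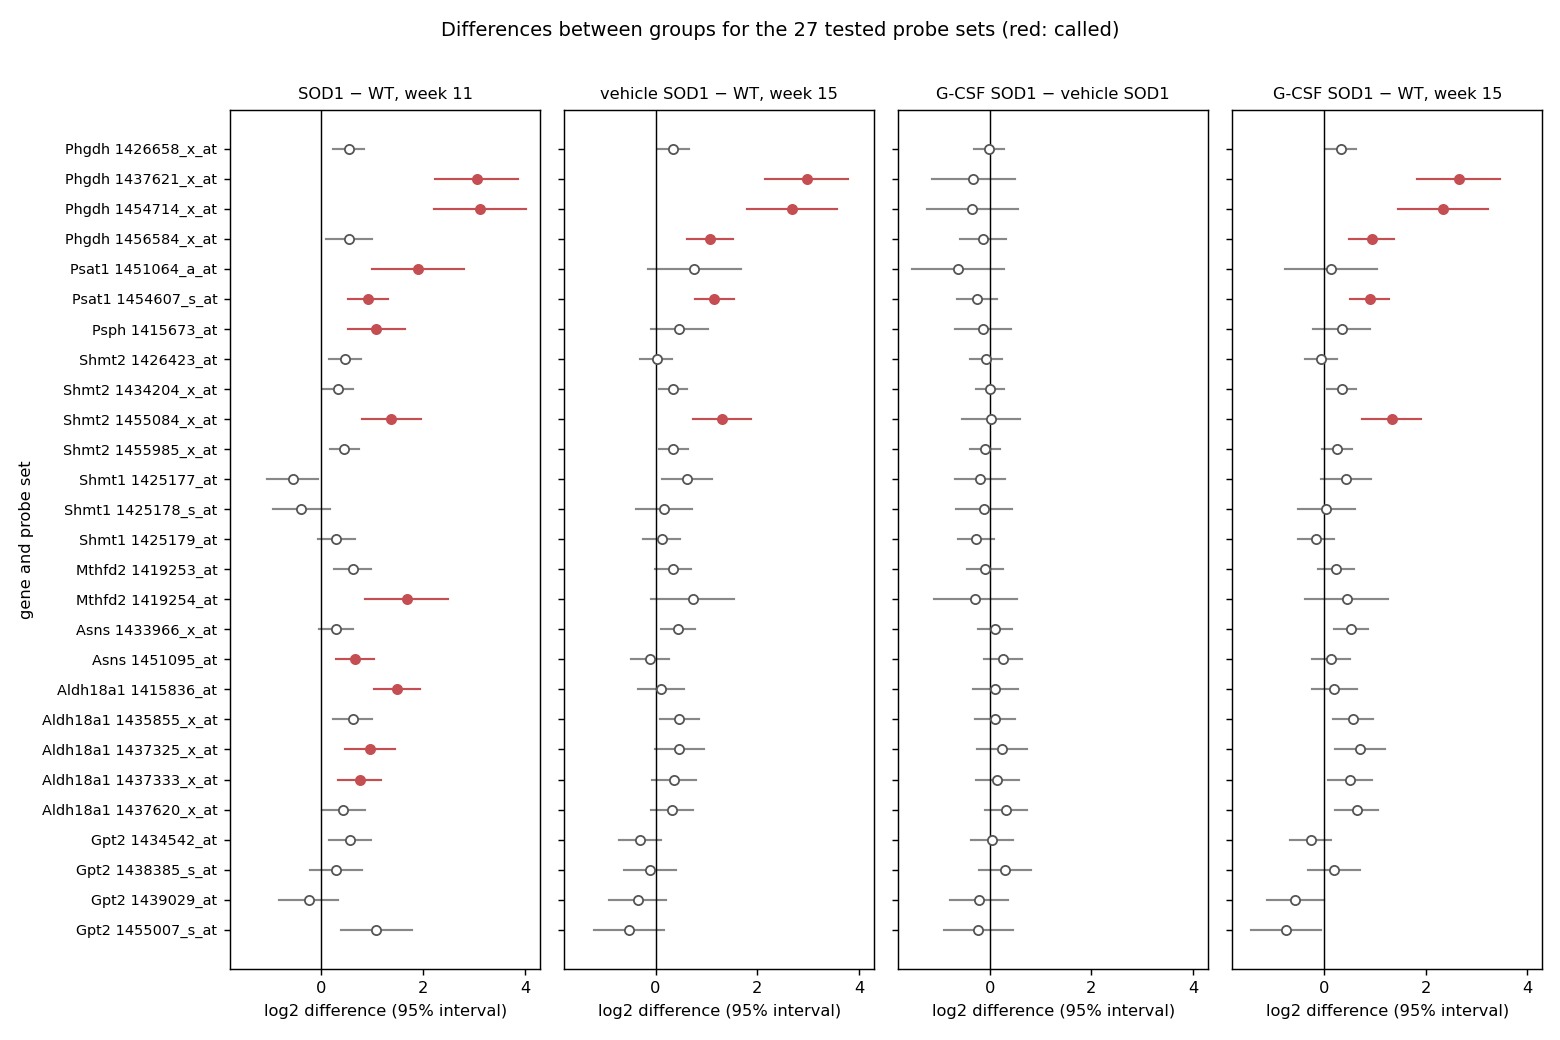
Log2 differences (horizontal axes) of the 27 tested probe sets (rows) in 4 comparisons, from left to right SOD1 minus WT at week 11, vehicle-treated SOD1 minus WT, G-CSF-treated minus vehicle-treated SOD1, and G-CSF-treated SOD1 minus WT at week 15; points are estimates, lines 95% intervals, red marks called probe sets. There are 11 red points at week 11, 5 in each SOD1 comparison with WT at week 15 and 0 between the treatments.

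Whether the SOD1 difference itself changed between the ages was tested as the difference of the 2 differences, week 15 minus week 11, with vehicle-treated mice at week 15. For 24 of the 27 probe sets this was not called. It was called lower for Aldh18a1 1415836_at (-1.38 ± 0.31, adjusted p = 0.0382, limma) and Gpt2 1455007_s_at (-1.60 ± 0.48, adjusted p = 0.0884, limma), and higher for Shmt1 1425177_at (1.18 ± 0.34, adjusted p = 0.0826, limma). Over all probe sets 2.15% were called lower and 0.778% higher. The members' median was -0.19, against 0.02 over all, with 21 of 27 below 0.

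On Aldh18a1 1415836_at the SOD1 difference was 0.10 at week 15 and 1.49 at week 11. At week 15 this probe set averaged 2.97 in vehicle-treated and 2.86 in WT mice, under the array medians. The other Aldh18a1 probe sets changed by -0.48 to -0.11 between the ages, and none of these changes was called. On the called Gpt2 probe set the SOD1 difference was -0.52 at week 15 and 1.08 at week 11. On the called Shmt1 probe set it was 0.62 at week 15 and -0.56 at week 11. Neither probe set was called at either age alone. The other Gpt2 probe sets changed by -0.86, -0.39 and -0.10 between the ages. The other tested Shmt1 probe sets changed in opposite directions, by 0.57 and -0.17. None of these changes was called. The Aldh18a1 call was kept with any 1 mouse left out (-1.51 to -1.26). The Gpt2 call was kept in 21 of 35 fits (-1.75 to -1.32), and was lost without SOD1 mouse 1, 2, 3, 4 or 6 or WT mouse 4 or 6 of week 11, vehicle-treated mouse 1 or 6, or WT mouse 2, 3, 4, 6 or 7 of week 15. The Shmt1 call was kept in 23 of 35 (1.01 to 1.31), and was lost without SOD1 mouse 2, 4 or 7 or WT mouse 1 or 6 of week 11, vehicle-treated mouse 3 or 6, or WT mouse 1, 2, 4, 6 or 7 of week 15. None of the 3 was called without the 3 arrays that stood apart (Aldh18a1 -1.23, Gpt2 -1.38, Shmt1 1.16), or with the 18S probe set as a covariate (-1.14, -1.98 and 1.41). For Phgdh 1437621_x_at the 2 SOD1 differences were 2.97 and 3.05 at weeks 15 and 11, and their own difference was -0.07 with a 95% interval from -1.23 to 1.08. For Asns 1451095_at it was -0.78 (-1.31 to -0.25, adjusted p = 0.121, limma), past the unadjusted threshold only.

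**Figure D4:**
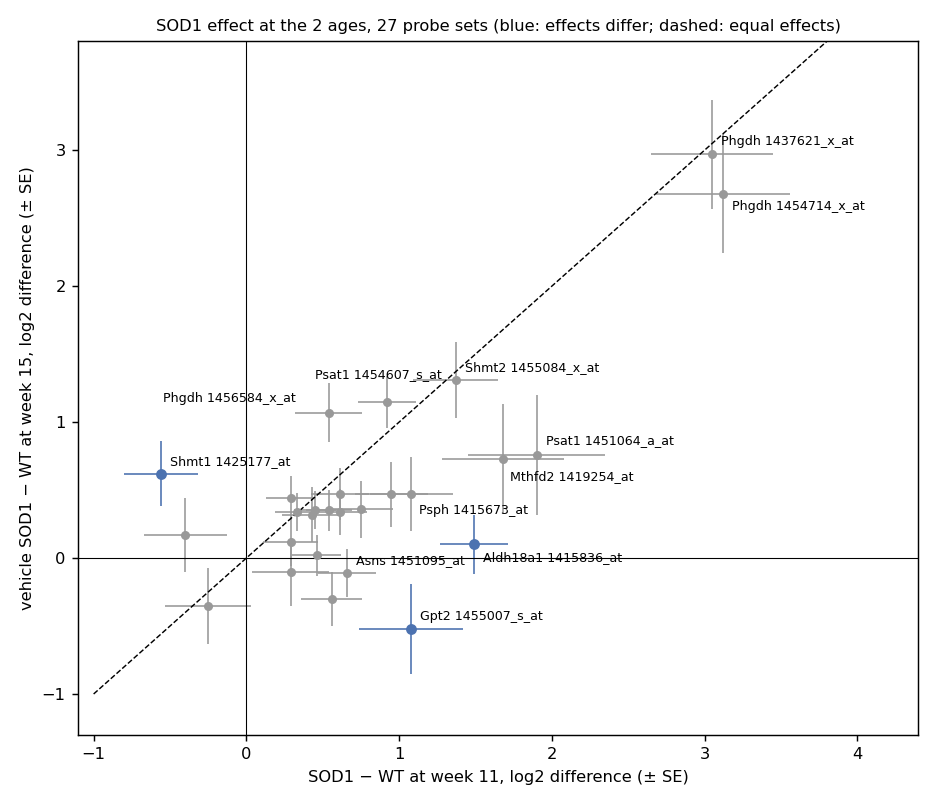
Log2 difference of vehicle-treated SOD1 minus WT at week 15 (vertical axis) against SOD1 minus WT at week 11 (horizontal axis) for the 27 probe sets, with SE bars; the dashed line marks equal differences and blue points those whose differences were called unequal. The Phgdh points at 3.05 and 2.97 and at 3.12 and 2.68 lie near the line, and Aldh18a1 1415836_at at 1.49 and 0.10 lies far below it.

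In WT mice alone, Phgdh 1437621_x_at read 5.41 to 6.27 at week 15 against 3.47 to 5.34 at week 11, without overlap. The difference of 1.21 ± 0.42 was the only one called of the 27 (adjusted p = 0.0962, limma), where 3.29% of all probe sets were called higher and 2.26% lower. The call was kept in 12 of 35 fits with 1 mouse left out (0.97 to 1.35). It was lost without any 1 of the WT mice of week 15, WT mouse 1, 2, 3 or 5 or SOD1 mouse 2, 3, 4, 5, 6 or 7 of week 11, vehicle-treated mouse 1, 2 or 4, or G-CSF mouse 4, 5 or 6. In 2 of the 27 probe sets the older WT mice lay wholly above the younger ones, against 1.66% of all probe sets, and the members' median was 0.15. The ages were separate cohorts with different 18S readings, so age and cohort cannot be told apart.

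G-CSF was compared with vehicle in SOD1 mice of 15 weeks. None of the 27 probe sets was called in limma, none had an unadjusted p under 0.05, and Tukey's comparison named in the methods called 0 as well. Over all probe sets 0.0383% were called in limma and 1.13% by Tukey's comparison. The members' median difference was -0.09, against 0.00 over all. In 0 of the 27 were the G-CSF-treated mice wholly above the vehicle-treated mice, as in 0.00957% of all probe sets, and the differences ran from -0.62 (Psat1 1451064_a_at) to 0.32 (Aldh18a1 1437620_x_at). For Phgdh 1437621_x_at the difference was -0.32 with a 95% interval from -1.14 to 0.49, so a change of up to about a log2 unit down is within the error. The G-CSF mean held 1 mouse at 5.57, with the others between 8.64 and 9.56. The medians of this probe set were 8.83 with G-CSF and 8.78 with vehicle. For Psat1 1454607_s_at the difference was -0.25 (-0.64 to 0.14), and for Shmt2 1455084_x_at 0.03 (-0.54 to 0.60).

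Against WT mice, 5 probe sets were called higher in G-CSF-treated SOD1 mice and 0 lower, where 0.348% of all were called higher and 0.778% lower. They were the same probe sets as in vehicle-treated mice. The comparisons share the WT mice, so each is given by its own values: Phgdh 1437621_x_at differed by 2.65 ± 0.40 with G-CSF and 2.97 ± 0.40 with vehicle, 1454714_x_at by 2.34 ± 0.44 and 2.68 ± 0.44, and 1456584_x_at by 0.94 ± 0.22 and 1.07 ± 0.22. Psat1 1454607_s_at differed by 0.91 ± 0.19 with G-CSF and 1.15 ± 0.19 with vehicle, and Shmt2 1455084_x_at by 1.34 ± 0.28 and 1.31 ± 0.28. The adjusted p with G-CSF ran from 0.0011 for Phgdh 1437621_x_at to 0.0366 for 1456584_x_at (limma). The members' median was 0.35, against 0.01 over all. In none of the 27 were the G-CSF-treated mice wholly above the WT mice, which held for 0.306% of all probe sets.

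For the called probe sets of Phgdh and Psat1, the overlap came from 1 animal, with the other 6 above every WT mouse. G-CSF mouse 1 read 5.57 on Phgdh 1437621_x_at, where the other 6 lay between 8.64 and 9.56, and 4.56 on 1454714_x_at, where they lay between 7.94 and 8.98. It read 8.77 on Psat1 1454607_s_at (others 9.71 to 10.38), 6.38 on Psph (6.65 to 7.55) and 6.13 on Shmt2 1455084_x_at (6.59 to 7.66), the lowest of its group each time. Over all 28 member probe sets it was the lowest on 10 and the highest on 2, and it was not the lowest on Psat1 1451064_a_at, Asns 1451095_at or either Mthfd2 probe set. Its mean over 5 stress-response genes was also the lowest, at 6.80 against 7.33 to 7.79, and so were its microglial marker mean (3.91 against 4.31 to 5.83) and its endothelial marker mean. Its astrocyte marker mean of 6.78 lay inside the range of the others (6.32 to 7.16), and its neuron and motoneuron marker means were the highest of the group. Its array ranked only 10th of 35 in distance from its group centre. Without this mouse the difference of G-CSF-treated mice from WT mice on Phgdh 1437621_x_at was 3.14.

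Other genes of these pathways were read from 2 further lists. Of 20 folate, glycine and methionine cycle genes (36 tested probe sets), 2 probe sets were called higher in SOD1 mice at week 11: Slc19a1, the reduced folate carrier (0.87 on 1448132_at), and Srr, which turns L-serine into D-serine (0.70 on 1419664_at), both with all 8 SOD1 mice above the WT mice. No other probe set of Slc19a1 or Srr was called in this comparison. At week 15, Ahcy, which clears S-adenosylhomocysteine, was called higher in vehicle-treated mice (0.70), while Mat2b, a subunit of the S-adenosylmethionine-making enzyme, and Mtr, methionine synthase, were called lower (-1.18 and -0.70). The list's medians were 0.06 and -0.04, close to those of all probe sets. None was called with G-CSF, against vehicle or against WT mice. For Mat2b the SOD1 differences, -1.18 at week 15 and 0.02 at week 11, were called unequal. In WT mice, Slc19a1 1420138_at averaged 8.27 at week 15 and 7.51 at week 11, Ahcy 6.47 and 7.25 and Mat2b 8.30 and 9.21, and these 3 were called.

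Of 16 other genes of amino acid synthesis and breakdown (29 tested probe sets), 1 was called higher at week 11. Odc1, which makes putrescine from ornithine, averaged 10.42 ± 0.32 in SOD1 and 8.88 ± 0.52 in WT mice on 1438761_a_at, without overlap, and differed by 1.54 ± 0.23 (adjusted p = 0.000214, limma). Its other 2 probe sets differed by 0.29 and 0.50 and were not called. For Odc1 on this probe set the SOD1 differences, 0.50 at week 15 and 1.54 at week 11, were called unequal. Oat, which links ornithine to proline and glutamate, was called lower in vehicle-treated mice (-1.09 ± 0.19, adjusted p = 0.000949, limma), with all 7 below every WT mouse. Its SOD1 difference had been 0.10 at week 11, and the differences at the 2 ages were called unequal (-1.19, adjusted p = 0.038, limma). Gad1, which makes GABA, was called in WT mice alone, averaging 3.57 at week 15 and 5.57 at week 11. This list's medians were 0.11 and 0.05 in the SOD1 comparisons of weeks 11 and 15.

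Since the serine genes are known from astrocytes, astrocyte markers were set beside them. Of 31 tested probe sets of the 12 astrocyte markers, 1 was called higher at week 11 and 1 at week 15, in each case Gfap 1440142_s_at, and 0 were called lower. Gfap, the astrocyte filament that rises in reactive astrocytes, read 4.15 to 8.37 in SOD1 against 3.86 to 5.73 in WT mice of week 11, and 6.54 to 9.5 in vehicle-treated against 3.48 to 6.24 in WT mice of week 15. It differed by 2.14 and 3.70, and by 2.78 with G-CSF against WT mice (called), and its other 2 probe sets were not called. The mean over all 12 markers overlapped between groups at both ages: 6.58 to 7.50 in SOD1 against 6.50 to 7.14 in WT mice of week 11, and 6.32 to 7.16 with G-CSF, 6.76 to 7.49 with vehicle and 6.42 to 7.37 in WT mice of week 15. Microglial markers were called higher than in WT mice on 3 of 14 probe sets with G-CSF and on 6 with vehicle at week 15, and on 0 at week 11. Neuron markers were called lower on 2 of 14 with G-CSF and 3 with vehicle (Nefm and Rbfox3), motoneuron markers on 1 of 13 and 2 (both Mmp9), and oligodendrocyte markers on 0 of 20 and 2 (Mobp and Olig1). At week 11, 1 neuron marker probe set was called higher. The part of these shifts in the members' values was not tested.

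With the astrocyte marker mean as a covariate, Phgdh 1437621_x_at differed by 2.96 at week 11 and 2.92 at week 15. The number of member probe sets called was 6 and 5. With Gfap 1440142_s_at as a covariate, an alternative added after the data had been seen, Phgdh differed by 2.40 and 1.85 and the numbers called were 3 (2 of Phgdh and 1 of Aldh18a1) and 0. That fit called 28 of all probe sets at week 11 and 41 at week 15, against 413 and 1854 without it, and Gfap itself differed between the groups. Whether the members' transcripts came from motoneurons or from astrocytes beside them was not tested.

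Within groups, after each mouse was set against its own group mean, Phgdh 1437621_x_at moved with the mean of Atf4, Ddit3, Trib3, Chac1 and Nupr1, genes of the stress response in which Atf4 acts. Over 35 mice Pearson's r was 0.70 (permutation within groups, p = 0.00015, adjusted 0.0027 over 18 relations) and Spearman's rho 0.53 (p = 0.00188, adjusted 0.0338). Without the 2 mice farthest on the stress measure r was 0.53, and without G-CSF mouse 1 it was 0.57. It was 0.61 in the mice of week 11 and 0.75 in those of week 15. In the 22 SOD1 mice r was 0.77 (rho 0.64) and in the 13 WT mice 0.31 (rho 0.26), a difference that was not tested. With the median of the 5 genes in place of their mean, r was 0.41. Against the astrocyte marker mean, Phgdh had an r of 0.12 and a rho of 0.20 (adjusted p = 0.886 and 0.524, permutation), with an r of 0.55 at week 11 and -0.07 at week 15.

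None of the other 16 relations passed after adjustment. By Pearson's r the nearest were Psph and Psat1 with the stress genes (r = 0.45 and 0.47, rho = 0.43 and 0.35, adjusted p of r 0.0628 and 0.11, permutation). By rho, Asns with the astrocyte markers followed Psph (rho = 0.39, r = 0.31, adjusted p 0.172 and 0.319, permutation). The Psat1 r was 0.24 without the 2 farthest mice, 0.03 at week 11 and 0.70 at week 15. The points of each relation share an array and its normalization. The stress genes were themselves higher in SOD1 mice, on 6 of 9 tested probe sets at week 11 and 6 of 9 at week 15, with medians of 1.06 and 1.00.

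**Figure D5:**
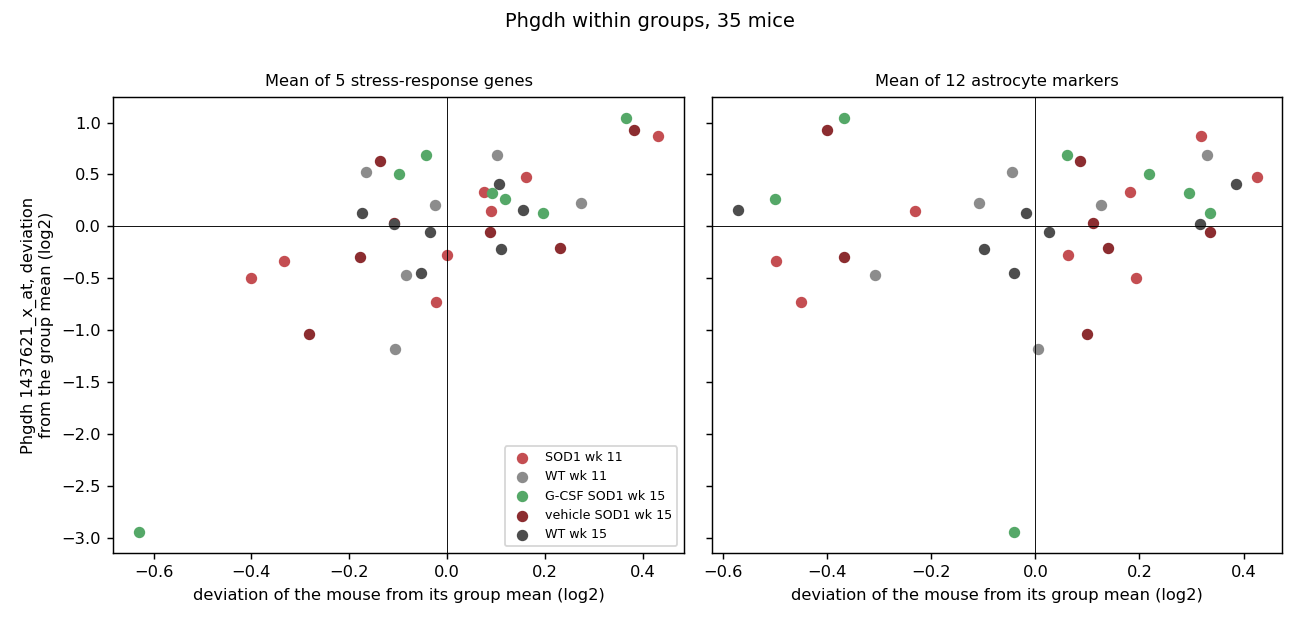
Deviation of Phgdh 1437621_x_at from the group mean (vertical axes, log2) against the deviation of the mean of 5 stress-response genes (left) and of 12 astrocyte markers (right) in the 35 mice, coloured by group. Pearson's r is 0.70 on the left and 0.12 on the right, and the lowest point in both is G-CSF mouse 1.

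By the same deviations from group means over 35 mice, the genes most like Phgdh 1437621_x_at among 14248 were Grn (progranulin, a lysosomal and secreted protein, r = 0.84), Tubb2b (a beta-tubulin, 0.83), Fscn1 (an actin-bundling protein, 0.72), Mt2 (a metallothionein, 0.71) and Chchd10 (a mitochondrial protein, 0.70). Without G-CSF mouse 1 their r was 0.66, 0.67, 0.60, 0.65 and 0.52. These values describe the ranking and carry no test.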

How the data were processed

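Each of the 35 arrays held the motoneurons of 1 mouse. The authors dissected 300 cells per mouse, amplified the RNA with T7 polymerase and hybridised it to Affymetrix mouse genome arrays. They normalised with GCRMA, using Affymetrix Expression Console, and no version is given in the sources used here. Values as deposited are log2 intensities of 45101 probe sets, 64 of them controls. The number of arrays limits the precision.

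Probe sets were named through the platform annotation: 34958 name 1 gene, 932 several and 9211 none. Probe sets naming several genes were left out, among them 2 that name Phgdh. The filter named in the methods kept 31352: 4 or more arrays had to exceed 2.40, the 20th centile of all values, and the SD had to reach 0.241, the 30th centile of SDs. Group means were fitted with limma 3.58.1 in R 4.3.3 and compared in 6 contrasts. The fit was tested on simulated data with known changes. All members are named at every probe set, and other pathway genes where called. The brightest probe set stood for a gene where 1 value was needed. Members, lists and tests were chosen with earlier results of these data known. Nothing in the labels says more of the mice than that they are separate samples of a group, so p-values measure the spread between mice.

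Alternatives were Tukey's comparison, no filter and a stricter one, quantile normalization, fits on the groups compared, a replicate block, array weights, other thresholds, covariates and leaving out each mouse. Relations used 100000 permutations within groups. Promoter windows came from RefSeq (GRCm38.p6). Python 3.11.15, pandas 2.3.3, scipy 1.17.1 and matplotlib 3.10.9 were used. The quantitative PCR was not analysed here.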

Additional observations from a re-analysis of the deposited data

Results flagged for a closer look

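Among 140 sets of values (each of 28 probe sets in each of 5 groups), 16 had a highest or lowest mouse far from the rest, by a criterion that chance meets in about 1 of 20 sets. In 4 sets this was G-CSF mouse 1, lowest on Phgdh 1437621_x_at (5.57), 1454714_x_at (4.56) and 1456584_x_at (6.11) and on Psat1 1454607_s_at (8.77). WT mouse 6 of week 11, whose array stood apart, was lowest on Psat1 1451064_a_at (3.42) and highest on Phgdh 1426658_x_at (5.63) and Gpt2 1439029_at (5.51). The vehicle-treated mice whose arrays stood apart were highest on Gpt2 1439029_at (mouse 3, 5.19) and Phgdh 1426658_x_at (mouse 5, 5.91).

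The remaining values lay in other arrays. WT mouse 3 of week 11 was lowest on Phgdh 1454714_x_at (3.11), and without it the SOD1 difference of that probe set was still called. SOD1 mouse 1 of week 11 was lowest on Asns 1451095_at (9.71), and SOD1 mouse 5 highest on Aldh18a1 1437620_x_at (4.72). Vehicle-treated mouse 7 (5.65) and WT mouse 3 of week 15 (4.94) were highest on Shmt1 1425178_s_at, and G-CSF mice 6 (2.84 on 1434204_x_at) and 2 (5.01 on 1455985_x_at) were highest on dim Shmt2 probe sets.

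The SOD1 difference itself differed between week 15 and week 11 for Shmt1 1425177_at (1.18), Aldh18a1 1415836_at (-1.38) and Gpt2 1455007_s_at (-1.60), each by a limma test of the difference. Of these, the Aldh18a1 call was the one kept with any 1 mouse left out.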

How the results depend on the processing

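The number of member probe sets called (main values 11 at week 11, 5 for vehicle and 5 for G-CSF against WT, 0 between treatments, 3 for the difference between ages and 1 in WT mice) moved most at week 11. There it was 7 with quantile normalization, 7 at an adjusted p under 0.05, 6 with the astrocyte covariate, 4 with the 18S covariate and 3 with the Gfap covariate, the last added after the data had been seen. Phgdh 1437621_x_at and 1454714_x_at and Aldh18a1 1415836_at were called there under each of these settings. The week 11 number was higher with others: 14 with Tukey's comparison, 13 with array weights and 12 with no minimum fold change. It was also 12 without the 3 arrays that stood apart, and it was 9 with only the groups compared. At week 15 the Gfap covariate left 0 for vehicle and 0 for G-CSF against WT, leaving out the 3 arrays that stood apart (also added later) gave 8 for vehicle, and array weights gave 8 for G-CSF. The difference between ages gave 1 at an adjusted p under 0.05, 0 with the 18S covariate and 0 without the 3 arrays, and Tukey's comparison could not be run for it. In WT mice it was 0 with Tukey's comparison, no filter, quantile normalization, the stricter adjusted p and the astrocyte and 18S covariates, 2 with only the groups compared or no minimum fold change, 4 with array weights (3 higher) and 3 without the 3 arrays (1 higher), against 1 higher in the reported fit. Leaving out 1 mouse gave 7 to 12 at week 11 (7 without WT mouse 2 or 5), 5 to 6 for vehicle, 5 to 7 for G-CSF against WT, 0 between treatments, 1 to 4 for the difference between ages (1 without SOD1 mouse 2 or 4 or WT mouse 6 of week 11, vehicle-treated mouse 6 or WT mouse 4, 6 or 7 of week 15) and 0 to 3 in WT mice (3 without WT mouse 6 of week 11 and 2 without G-CSF mouse 1). After group means were removed, 1 of 66 same-numbered pairs of mice correlated over 0.1 (-0.21 to 0.14). Differently numbered pairs were not set beside them, so this cannot decide whether replicate numbers pair the mice. With the replicate block the numbers were 7 at week 11, 5 for vehicle and 5 for G-CSF against WT, 2 for the difference between ages and 0 in WT mice. No called difference of a member changed sign under these settings. Differences that were not called are not covered by this statement. The number of all probe sets called ranged at week 11 from 28 (Gfap covariate) to 1114 (array weights) around 413, for vehicle against WT from 41 (Gfap) to 2308 (no minimum fold change) around 1854, for G-CSF against WT from 12 (Gfap) to 914 (without the 3 arrays) around 353, between treatments from 0 (only the groups compared) to 353 (Tukey) around 12, for the difference between ages from 49 (18S) to 1225 (array weights) around 919, and in WT mice from 505 (18S) to 3827 (array weights) around 1743. Dim probe sets, among them 3 of Shmt2 and Aldh18a1 1415836_at outside SOD1 mice of week 11, read too near the array medians for a fold change to be sized.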
